A study of Homo sapiens with 12 samples.

Results

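Vitamin K-dependent factors are secreted proteins whose glutamate residues are carboxylated before they leave the cell, and the genes examined here encode these factors and the enzymes that carry out the modification. The 10 genes were chosen by symbol for what their products do, with earlier results of these data known. The rule itself used no measured value. The genes are the procoagulant zymogens F2, F7, F9 and F10, the anticoagulant proteins PROC, PROS1 and PROZ, the receptor ligand GAS6, and the carboxylation enzymes GGCX and VKORC1. Of the 10, 9 were measured among the 16389 genes of the series, and F9 was not analysed here. HepG2, an established human liver cancer cell line used at passage 9, was grown for 48 h in low glucose (LG, 5.5 mM) or high glucose (HG, 20 mM). Valproic acid (VPA), an antiepileptic drug that inhibits histone deacetylases, was then added to some of these cultures at 1 mM for a further 12 h (LGV and HGV). Each of the 4 groups had 3 libraries of poly(A)-selected RNA. Whether the untreated cells were collected before or after these 12 h was not stated, and nothing says that the 3 libraries of a group came from separate cultures, so the p-values measure only the spread between these libraries, which may be technical.

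In the liver, the precursors of these factors carry a propeptide that docks on gamma-glutamyl carboxylase (GGCX). The enzyme converts clustered glutamates to gamma-carboxyglutamate (the Gla domain) and oxidises reduced vitamin K to its epoxide, which the epoxide reductase VKORC1, the target of warfarin, recycles. The Gla domain binds calcium and lets the factor attach to negatively charged phospholipid membranes, where clotting is started or stopped.

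Between 29798442 and 45572694 reads per library were counted on genes. Levels are given as CPM, the reads of a gene scaled to a common library size, with TMM factors as a correction for composition. All 10 hepatocyte markers examined were measured, and their summed level lay between 62174 and 66711 CPM in LG, 61528 and 69436 in HG, 46310 and 48127 in LGV, and 55554 and 69920 in HGV. Of the leukocyte markers 2 of 5 were measured (summed 909 to 1549 CPM over the 12 libraries, nearly all LYZ, with PTPRC, CD68 and CD3E not analysed here), of the endothelial markers 2 of 4 (2.21 to 4.85 CPM), and of the fibroblast or stellate markers 2 of 5 (18.8 to 58.3 CPM). A sequencing batch was named nowhere.

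The promoters of 4 members are shown first, because they contrast in CpG content and in the VPA response described below. F7 had the largest drop of all members in both media. PROC had the next largest in low glucose, and PROZ, whose promoter is not shown, in high glucose. GAS6 and GGCX had the largest increases in HGV. Each line holds the 250 bases before the start of the canonical transcript on GRCh37, 5′ to 3′ on the strand of the gene, with each CpG in capitals. The windows are chr13:113759855-113760104 on the plus strand for F7, chr2:128175753-128176002 on the plus strand for PROC, chr13:114567050-114567299 on the minus strand for GAS6 and chr2:85788617-85788866 on the minus strand for GGCX.
F7: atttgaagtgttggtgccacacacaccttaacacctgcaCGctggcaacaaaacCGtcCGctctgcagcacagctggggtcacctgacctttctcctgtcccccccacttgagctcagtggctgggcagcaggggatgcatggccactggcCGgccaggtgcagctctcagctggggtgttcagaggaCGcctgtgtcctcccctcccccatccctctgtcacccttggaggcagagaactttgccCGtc
PROC: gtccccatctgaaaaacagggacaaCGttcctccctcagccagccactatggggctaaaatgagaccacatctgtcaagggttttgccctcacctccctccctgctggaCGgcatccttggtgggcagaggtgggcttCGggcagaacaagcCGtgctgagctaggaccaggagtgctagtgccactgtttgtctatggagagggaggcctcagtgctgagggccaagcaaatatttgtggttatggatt
GAS6: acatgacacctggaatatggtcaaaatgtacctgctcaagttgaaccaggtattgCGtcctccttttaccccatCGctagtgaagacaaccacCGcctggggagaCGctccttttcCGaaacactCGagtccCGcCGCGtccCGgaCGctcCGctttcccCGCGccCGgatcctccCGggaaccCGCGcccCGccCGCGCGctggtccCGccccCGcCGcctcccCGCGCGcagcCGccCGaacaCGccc
GGCX: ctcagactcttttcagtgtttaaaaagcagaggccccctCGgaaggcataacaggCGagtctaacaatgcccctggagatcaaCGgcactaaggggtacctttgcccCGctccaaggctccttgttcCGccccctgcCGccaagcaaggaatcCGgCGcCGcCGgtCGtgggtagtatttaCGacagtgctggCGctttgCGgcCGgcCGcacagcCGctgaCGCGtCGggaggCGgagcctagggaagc

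F7, PROC, PROZ and F2 fell with VPA in both glucose media, GAS6, GGCX and VKORC1 rose in both, PROS1 fell in high glucose, and F10 passed the test in neither. In high glucose (HGV against HG), 3 members rose and 5 fell at a false discovery rate (FDR) of 0.05 or less in edgeR's quasi-likelihood test, adjusted by the Benjamini-Hochberg method over all genes tested. Among the 16188 genes tested in that comparison, 46.1% were called, 25.8% higher and 20.2% lower. In low glucose (LGV against LG) 3 members rose and 4 fell, where 41.6% of 15944 genes were called, 21.7% higher and 19.9% lower. The median log2 fold change of the 9 members was -0.35 in high glucose (all genes tested, 0.02) and -0.23 in low glucose (all genes tested, -0.01). The libraries of the groups compared did not overlap for 8 of the 9 members in high glucose (54.6% of all genes tested) and for 7 of 9 in low glucose (50.5%).

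**Figure D1:**
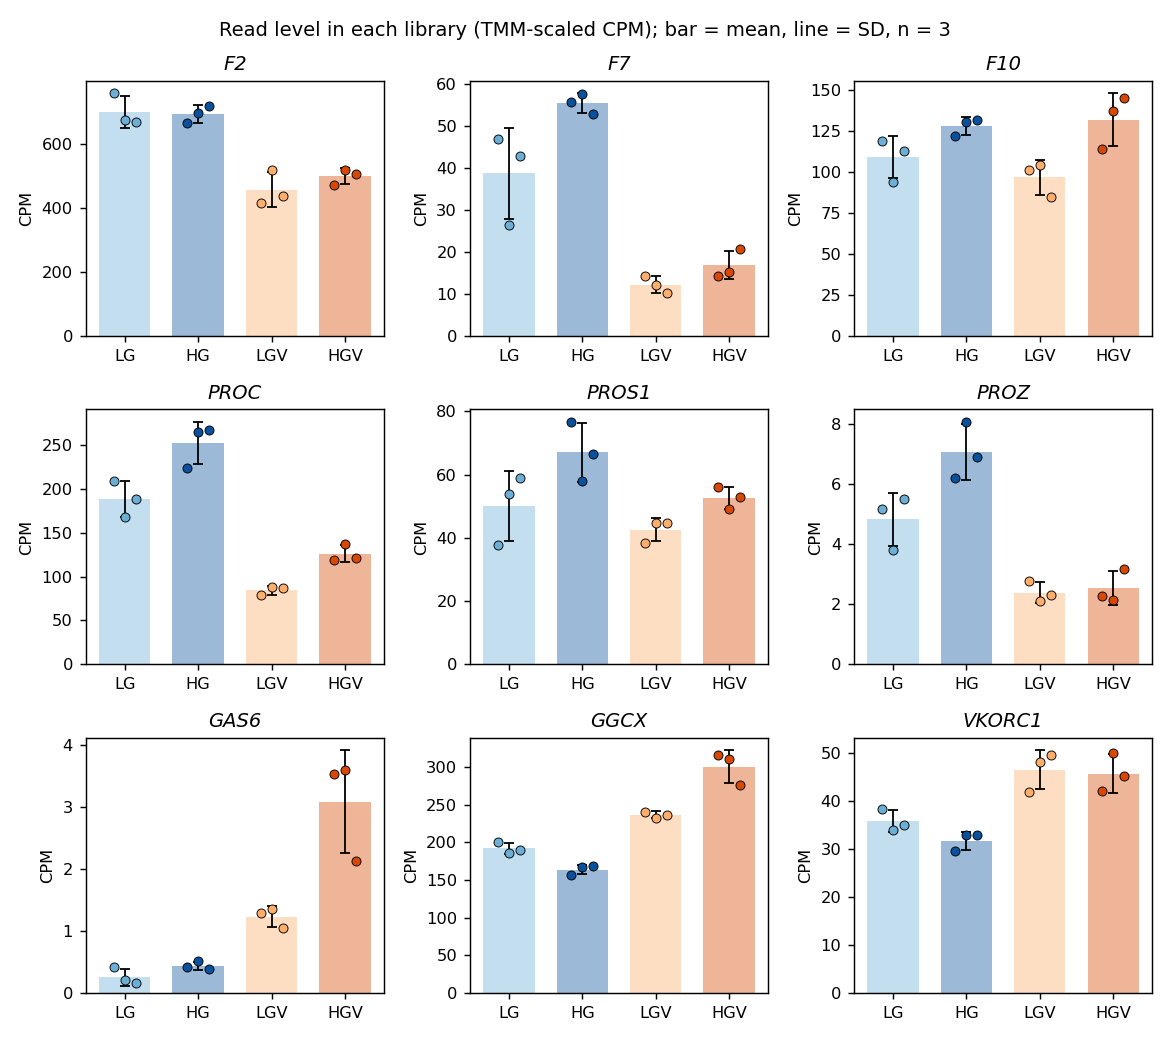
Level of each of the 9 measured members in CPM (vertical axis from 0, 1 panel per gene) by group (LG, HG, LGV, HGV), with points for libraries, bars for means and lines for the SD (n = 3). The F7 points of LGV and HGV (10.2 to 20.6 CPM) lie below all untreated points (26.4 to 57.7 CPM), while those of GAS6 (1.04 to 3.59 CPM) lie above all untreated points (0.153 to 0.508 CPM).

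F2 (chr11:46740746-46761056, plus strand, 14 exons in its canonical transcript) encodes prothrombin, the precursor of thrombin. Its level was 758, 673 and 669 CPM in the LG libraries, 664, 696 and 718 in HG, 414, 519 and 438 in LGV and 472, 519 and 507 in HGV. Every VPA library lay below every untreated library, and the LG and HG libraries overlapped. F2 fell with VPA by 0.47 on the log2 scale in high glucose (SE 0.10, edgeR FDR 0.00195) and by 0.60 in low glucose (SE 0.13, edgeR FDR 0.00175). The HGV mean was thus 72.1% of the HG mean and the LGV mean 65.3% of the LG mean. In bulk RNA, fewer cells that express a gene and less RNA per cell cannot be told apart.

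F7 (chr13:113760102-113774999, plus strand, 8 exons) encodes coagulation factor VII, which with tissue factor starts clotting. It was at 46.9, 26.4 and 42.8 CPM in LG, 55.7, 57.7 and 52.8 in HG, 14.3, 12.1 and 10.2 in LGV and 14.4, 15.3 and 20.6 in HGV. The second LG library was the lowest of the untreated libraries, and it still lay above every VPA library. The log2 fold change with VPA was -1.72 in high glucose (SE 0.14, edgeR FDR 9.87e-07) and -1.65 in low glucose (SE 0.20, edgeR FDR 1.33e-05), the largest drop among the members in either medium. F7 in HGV stood at 30.3% of its HG mean, and in LGV at 31.5% of its LG mean.

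F10 (chr13:113777113-113803843, plus strand, 8 exons) encodes factor X, the zymogen at which both arms of the cascade meet. It was at 119, 94.1 and 113 CPM in LG, 122, 130.3 and 132 in HG, 101, 104 and 84.7 in LGV and 114, 137 and 145 in HGV. The VPA and untreated libraries overlapped in both media. The log2 fold change with VPA was 0.05 in high glucose (SE 0.11, edgeR FDR 0.753) and -0.15 in low glucose (SE 0.13, edgeR FDR 0.37), and with library sizes alone as scaling the value in low glucose was 0.

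F7, F10 and PROZ lie side by side on chr13, all on the plus strand. Only 2113 bases separate the end of F7 from the start of F10, and 9118 bases separate F10 from PROZ, while GAS6 lies 696821 bases further along on the minus strand. The log2 ratio of F10 to F7 counts was 1.34, 1.83 and 1.4 in the LG libraries, 1.13, 1.18 and 1.32 in HG, 2.83, 3.10 and 3.06 in LGV and 2.99, 3.16 and 2.82 in HGV. Neighbours in the genome therefore held a different balance in all 6 VPA libraries from that in all 6 untreated ones. The log2 ratio of F10 to PROZ was likewise 4.01 to 4.62 in the untreated libraries and 5.20 to 6.0 in the VPA libraries. Both ratios were chosen after the values had been seen and were not tested.

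PROC (chr2:128176003-128186818, plus strand, 9 exons) encodes protein C, which when activated cuts factors Va and VIIIa. It was at 209, 168 and 188 CPM in LG, 224, 264 and 267 in HG, 78.5, 88.2 and 86.9 in LGV and 119, 137 and 121 in HGV. The VPA libraries of each medium lay below all untreated libraries. PROC fell with VPA by 1.00 on the log2 scale in high glucose (SE 0.11, edgeR FDR 1.14e-05) and by 1.14 in low glucose (SE 0.12, edgeR FDR 4.2e-06).

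PROZ (chr13:113812962-113826700, plus strand, 8 exons) encodes protein Z, a cofactor that brings a serpin to factor Xa. It was at 5.16, 3.82 and 5.49 CPM in LG, 6.21, 8.07 and 6.89 in HG, 2.76, 2.11 and 2.3 in LGV and 2.27, 2.14 and 3.18 in HGV, from 65 to 270 reads a library. All VPA libraries lay below all untreated ones. The log2 fold change was -1.49 in high glucose (SE 0.19, edgeR FDR 5.17e-05) and -1.0 in low glucose (SE 0.23, edgeR FDR 0.00259). SERPINA10, the protein Z-dependent serpin that works with PROZ, had log2 fold changes of -2.21 (edgeR FDR 1.46e-07) and -2.44 (edgeR FDR 1.8e-06). Its mean went from 27.4 CPM in HG to 5.92 in HGV, and from 22.1 in LG to 4.05 in LGV, so both genes of the pair fell in both media.

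PROS1 (chr3:93591895-93698847, minus strand, 15 exons) encodes protein S, a cofactor of activated protein C. It was at 37.8, 53.7 and 58.9 CPM in LG, 76.7, 57.9 and 66.4 in HG, 38.4, 44.7 and 44.7 in LGV and 56.1, 49.1 and 52.8 in HGV. The HGV libraries lay below the HG libraries, and those of LGV and LG overlapped, the first LG library being lower than all 3 of LGV. PROS1 fell in high glucose (log2 fold change -0.35, SE 0.12, edgeR FDR 0.0315) and was at -0.23 in low glucose (SE 0.15, edgeR FDR 0.264). The call in high glucose was lost with library sizes as scaling (-0.22, edgeR FDR 0.153), with 1 fit of all 12 libraries (edgeR FDR 0.061), and without HGV2, HGV3, HG1 or HG3 (edgeR FDR 0.0625, 0.0737, 0.0889 and 0.0799). Without LG1 the value in low glucose was -0.40 (edgeR FDR 0.0335). A closely similar pseudogene of PROS1 exists, and how many reads that fit both were left out at the mapping quality of 10 is not known.

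GAS6 (chr13:114523522-114567049, minus strand, 15 exons) encodes a relative of protein S that activates the receptor kinases TYRO3, AXL and MERTK. Its counts were 11, 8 and 6 reads in LG, 13, 17 and 14 in HG, 43, 42 and 39 in LGV and 115, 151 and 72 in HGV. All VPA libraries lay above all untreated libraries, and all HGV libraries above all LGV libraries, although even the highest was at 3.59 CPM. For comparison, a floor of 3 reads was equal to 0.0713 to 0.112 CPM, depending on the library, and covers counting error only. The antisense gene GAS6-AS1 overlaps 421 exon bases of GAS6 (7.0%) on the opposite strand, and whether the counting used strand was not stated. GAS6 rose with VPA by 2.81 on the log2 scale in high glucose (SE 0.29, edgeR FDR 7.06e-06) and by 2.34 in low glucose (SE 0.39, edgeR FDR 0.000231). In low glucose GAS6 reached the minimum mean count for testing only through the LGV libraries. The LG libraries alone averaged below it, so this call and its FDR rest on a gene kept because it was high with VPA. The 3 receptors, listed together after their values had been seen, had lower values: AXL fell in high (-0.94, edgeR FDR 0.000431) and low glucose (-1.03, edgeR FDR 0.0016), MERTK (-0.59, edgeR FDR 0.000384) and TYRO3 (-0.46, edgeR FDR 0.00443) fell in high glucose. In low glucose MERTK stood at -0.26 (edgeR FDR 0.113) and TYRO3 at -0.21 (edgeR FDR 0.157).

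GGCX (chr2:85771843-85788655, minus strand, 15 exons) encodes the carboxylase itself. It was at 201, 186 and 189.7 CPM in LG, 157, 167 and 169 in HG, 241, 232 and 237 in LGV and 316, 311 and 276 in HGV. All VPA libraries lay above all untreated libraries, the HG libraries were the lowest, and the HGV libraries were the highest. GGCX rose with VPA by 0.87 in high glucose (SE 0.10, edgeR FDR 1.76e-05) and by 0.31 in low glucose (SE 0.11, edgeR FDR 0.0337). The call in low glucose was lost when any 1 of the 6 libraries LG1, LG2, LG3, LGV1, LGV2 or LGV3 was left out, with log2 fold changes of 0.29 to 0.34 and edgeR FDR of 0.0529 to 0.0927. Exons of MAT2A, which had 4682 reads on average, overlap 562 exon bases of GGCX on the opposite strand, so strand matters for this count too.

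VKORC1 (chr16:31102163-31107301, minus strand, 3 exons) encodes the epoxide reductase. It was at 38.4, 33.9 and 35.0 CPM in LG, 29.5, 32.8 and 32.8 in HG, 41.8, 48.2 and 49.5 in LGV and 42.0, 49.9 and 45.2 in HGV. Again all VPA libraries lay above all untreated ones. The log2 fold change was 0.53 in high glucose (SE 0.11, edgeR FDR 0.00182) and 0.39 in low glucose (SE 0.12, edgeR FDR 0.0162). The latter call was lost without LGV2 (0.37, edgeR FDR 0.066) or LGV3 (0.36, edgeR FDR 0.0829). In the GENCODE annotation other genes overlap 34.7% of its exon bases on the same strand and 58.0% on the opposite one, so its reads could include theirs.

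**Figure D2:**
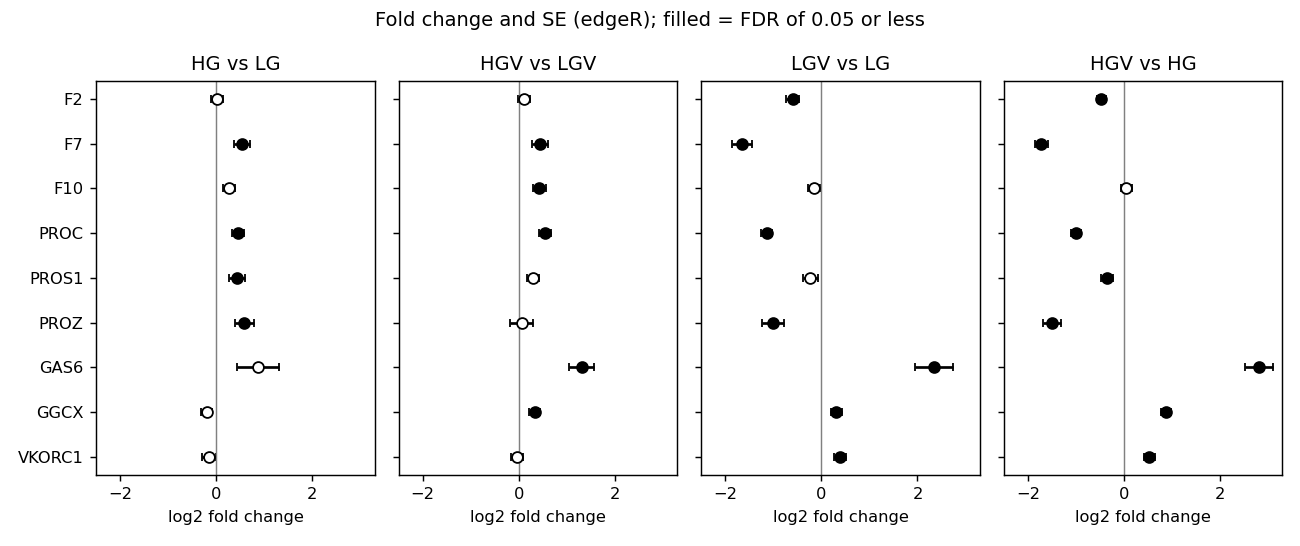
Log2 fold change with its SE for each measured member in HG against LG, HGV against LGV, LGV against LG and HGV against HG, with filled points for an FDR of 0.05 or less. VPA points of F7, PROC, PROZ and F2 lie below 0 in both media (F7 at -1.72 and -1.65), and those of GAS6, GGCX and VKORC1 above 0 (GAS6 at 2.81 and 2.34).

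Of the 10 hepatocyte markers, 7 fell with VPA in low glucose (median log2 fold change -0.46), and 2 fell and 1 rose in high glucose (median -0.13). HNF4A, a transcription factor that maintains liver gene expression, fell in both (-0.73, edgeR FDR 0.000299, and -0.46, edgeR FDR 0.00141), and APOA1 (-0.61, edgeR FDR 0.00256) and APOB (-0.60, edgeR FDR 0.00456), which encode lipoprotein components, fell in low glucose. FGB, the fibrinogen beta chain, fell in low (-0.68, edgeR FDR 0.000907) and in high glucose (-0.50, edgeR FDR 0.0353, with overlapping libraries). COL1A1, a collagen chain of fibroblasts, rose to 1.97 CPM in HGV and 1.09 in LGV (log2 fold changes 2.52 and 2.36, edgeR FDR 8.96e-05 and 0.000553), and CDH5, an endothelial cadherin, rose to 1.29 CPM in HGV (1.65, edgeR FDR 0.00133). In low glucose COL1A1 reached the minimum of 10 reads on average only through the LGV libraries, and CDH5 was not tested. Of the remaining markers named by rule, CD14, a monocyte receptor, was at -0.56 in high glucose (edgeR FDR 0.0218) and PDGFRB, of stellate cells, at -0.47 in low glucose (edgeR FDR 0.0246). The part of these marker genes in the members' values was not tested.

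Per transcript length (RPKM, reads per kilobase of the canonical transcript, scaled to library size like CPM), the levels of the members spanned from F2 at the top to GAS6 at the bottom in all 4 groups. Mean F2 was 352 RPKM in LG, 348 in HG, 229.7 in LGV and 251 in HGV, and mean GAS6 0.102, 0.174, 0.491 and 1.23. Without VPA, PROC stood next to F2 (106 RPKM in LG and 142 in HG), followed by F10 (70.7 and 83.3), VKORC1 (42.6 and 37.7) and GGCX (25.4 and 21.8). PROS1 (14.9 and 19.9), F7 (12.6 and 18.1) and PROZ (3.22 and 4.72) came below them. Libraries of PROS1 and F7 overlapped in LG and HG, as did those of GGCX and PROS1 in HG.

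With VPA this order was different in the upper part of the list. In LGV, F10 (63.0 RPKM), VKORC1 (55.4) and PROC (47.8) came after F2, and the libraries of VKORC1 overlapped those of both F10 and PROC. In HGV the sequence was F10 (86.1), PROC (71.1) and VKORC1 (54.4), of which only F10 and PROC overlapped. GGCX (31.4 and 39.9) and PROS1 (12.6 and 15.6) kept their places, F7 was at 3.98 and 5.47 RPKM, and PROZ, at 1.69 RPKM in HGV, overlapped GAS6 there. All these are mean levels, and the order was not tested.

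Without VPA (HG against LG), F7, PROC, PROZ and PROS1 were higher in high glucose, and the other members did not pass the test. Thus 4 of 9 were called, all higher, where of 15452 genes tested 24.7% were called, 12.0% higher and 12.7% lower. F7 rose by 0.54 on the log2 scale (SE 0.17, edgeR FDR 0.0237), PROC by 0.45 (SE 0.13, edgeR FDR 0.0157), PROZ by 0.58 (SE 0.20, edgeR FDR 0.0441) and PROS1 by 0.43 (SE 0.16, edgeR FDR 0.0473). The HG libraries lay above those of LG for F7, PROC and PROZ and also for F10, below them for GGCX and VKORC1, and overlapped them for PROS1, F2 and GAS6, so 6 of 9 members did not overlap (41.2% of all genes tested). The members below the threshold were F10 (0.26, edgeR FDR 0.129), GAS6 (0.87, SE 0.43, edgeR FDR 0.143), F2 (0.01, edgeR FDR 0.966), GGCX (-0.20, edgeR FDR 0.208) and VKORC1 (-0.15, edgeR FDR 0.442). Among the markers, FGB (0.88, edgeR FDR 0.000836), APOA1 (0.48, edgeR FDR 0.00991) and CD14 (1.28, edgeR FDR 0.0016) were higher and PDGFRB (-1.02, edgeR FDR 0.00048) lower in HG, so 2 of 10 hepatocyte markers were called (median 0.05), and their part in the members' values was not tested.

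Each of these 4 calls was lost in some of the fits with 1 library left out. Such fits hold fewer libraries, and they called 1933 to 5338 of all genes, against 3813 with none left out. Some calls were lost although the fold change was no smaller, such as F7 without HG1 (main value 0.54). F7 was lost without HG1 (0.56, edgeR FDR 0.0709), HG2 (0.50, edgeR FDR 0.0552) or LG2 (0.35, edgeR FDR 0.0682), and PROC without HG2 (0.40, edgeR FDR 0.0755) or HG3 (0.43, edgeR FDR 0.0653). PROZ was lost without HG2 (0.46, edgeR FDR 0.199), HG3 (0.63, edgeR FDR 0.102), LG1 (0.64, edgeR FDR 0.088) or LG2 (0.45, edgeR FDR 0.119), and also with the replicate block (edgeR FDR 0.0621). PROS1 was lost without HG1 (0.34, edgeR FDR 0.184), HG3 (0.48, edgeR FDR 0.0972), LG1 (0.29, edgeR FDR 0.205) or LG2 (0.51, edgeR FDR 0.0509). The direction of all 4 was kept in every one of these fits, but between 1 and 4 members passed. Under an FDR of 0.01 the edgeR count was 0 members, where 1852 of all 15452 genes were called. At an unadjusted p under 0.05 in edgeR's test it was 5 members, and the share of all genes at that level was not computed. Whether 5 of 9 is unusual therefore cannot be told. With DESeq2 at an FDR of 0.05, 4 members were called, and slightly more of all genes than with edgeR.

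**Figure D3:**
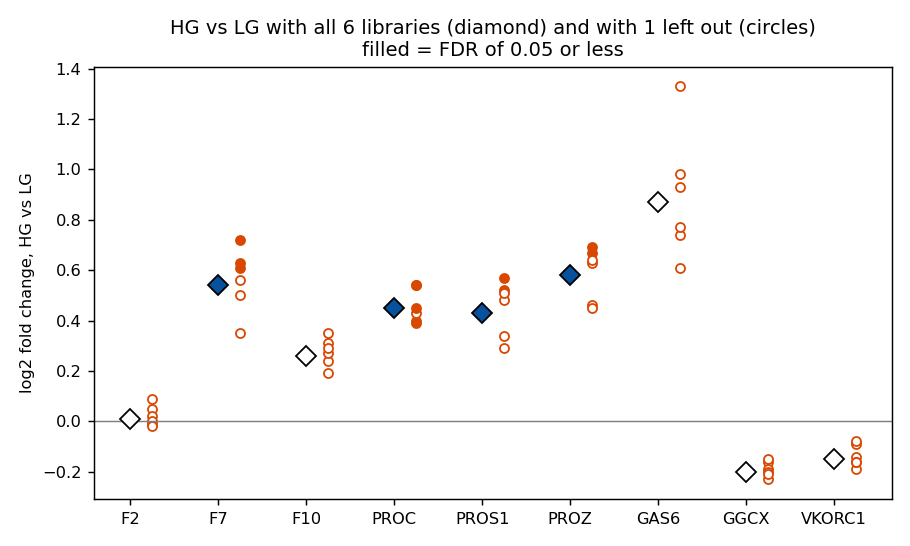
Log2 fold change of each measured member in HG against LG with all 6 libraries (diamonds) and with 1 library left out (circles), filled where the FDR was 0.05 or less. The circles of F7, PROC, PROS1 and PROZ all lie above 0, between 0.29 (PROS1 without LG1) and 0.72 (F7), and the open ones are calls that were lost.

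Under VPA (HGV against LGV, other libraries than those of HG against LG), 5 members were higher in high glucose, where 40.7% of 16208 genes were called, 21.2% higher and 19.5% lower. GAS6 was higher by 1.31 on the log2 scale (SE 0.26, edgeR FDR 0.00077), PROC by 0.55 (SE 0.12, edgeR FDR 0.00117), F7 by 0.44 (SE 0.17, edgeR FDR 0.0417), F10 by 0.43 (SE 0.13, edgeR FDR 0.0123) and GGCX by 0.33 (SE 0.12, edgeR FDR 0.037). The libraries did not overlap for 6 members, PROS1 being the other (51.4% of all genes tested). PROC and GAS6 kept their calls when any 1 library was left out. The F7 call was lost without HGV3 (0.27, edgeR FDR 0.249), LGV2 (0.44, edgeR FDR 0.0877) or LGV3 (0.32, edgeR FDR 0.214), that of F10 without HGV3 (0.36, edgeR FDR 0.061) or LGV3 (0.34, edgeR FDR 0.108), and that of GGCX without HGV1 (0.29, edgeR FDR 0.113), LGV2 (0.31, edgeR FDR 0.113) or LGV3 (0.33, edgeR FDR 0.133). PROS1 was at 0.29 (edgeR FDR 0.0625), and at 0.34 without HGV2 (edgeR FDR 0.0255). F2 (0.11), PROZ (0.06) and VKORC1 (-0.04) did not pass. Of the hepatocyte markers, 4 of 10 were higher in this comparison (median 0.36). Of the markers of other cells, CD14 (1.51, edgeR FDR 0.000381), LYZ (0.61, edgeR FDR 0.00185), CDH5 (1.80, edgeR FDR 0.000924) and COL1A1 (0.81, edgeR FDR 0.0486) were higher and PDGFRB (-0.33, edgeR FDR 0.0494) lower. The part of these markers in the values was not tested.

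Set against LG directly, HGV cells had lower F7 (-1.20, edgeR FDR 1.73e-05), PROZ (-0.92, edgeR FDR 0.00292), PROC (-0.57, edgeR FDR 0.0015) and F2 (-0.48, edgeR FDR 0.00633), and higher GAS6 (3.67, edgeR FDR 2.72e-08), GGCX (0.66, edgeR FDR 0.000306) and VKORC1 (0.36, edgeR FDR 0.0358). This comparison shares its LG libraries with HG against LG and its HGV libraries with HGV against HG. Here too GAS6 reached the minimum mean count for testing only through the VPA libraries, those of HGV. Among all 16266 genes tested 52.2% were called, 27.9% higher and 24.3% lower, and the 7 members called also had libraries that did not overlap (58.6% of all genes tested). F7 and PROC, higher in HG than in LG, were in HGV at 43.3% and 66.8% of their LG means. The F2 value was -0.25 with library sizes as scaling (edgeR FDR 0.093), and VKORC1 was lost with median-ratio size factors (0.34, edgeR FDR 0.051), with the replicate block (0.36, edgeR FDR 0.0568), and without HGV2 (0.29, edgeR FDR 0.0896), HGV3 (0.38, edgeR FDR 0.0803), LG2 (0.33, edgeR FDR 0.0818) or LG3 (0.35, edgeR FDR 0.0667). F10 (0.29, edgeR FDR 0.0911) passed only with library sizes as scaling (0.52, edgeR FDR 0.00517), and PROS1 was at 0.08 (edgeR FDR 0.712). Of the markers, HNF4A (-0.49, edgeR FDR 0.00527) and PDGFRB (-0.78, edgeR FDR 0.000304) were lower in HGV, and FGB (0.37, edgeR FDR 0.0408), CD14 (0.71, edgeR FDR 0.0372), COL1A1 (1.97 against 0.226 CPM, edgeR FDR 1.06e-06) and CDH5 (1.29 against 0.123 CPM, edgeR FDR 7.14e-06) were higher. Their part in the members' values was not tested.

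Whether the VPA response differed between the media was tested over the 12 libraries with an interaction term. In edgeR's test 0 of 9 members passed, against 0.0427% of all 16389 genes (0.0244% higher and 0.0183% lower). An unadjusted p under 0.05 was reached by 1 member, and the share of all genes at that level was not computed. That member was GGCX, whose VPA response was larger in high glucose by 0.57 on the log2 scale (SE 0.15, edgeR FDR 0.116). With DESeq2 it was called (0.54, FDR 0.0263), again as the only member. DESeq2 called 162 of all genes for the interaction, against 7 in edgeR. For the others the difference was 0.14 for F2 (SE 0.16), -0.06 for F7 (SE 0.26), 0.21 for F10 (SE 0.18), 0.15 for PROC (SE 0.17), -0.11 for PROS1 (SE 0.21), -0.47 for PROZ (SE 0.30), 0.47 for GAS6 (SE 0.52) and 0.15 for VKORC1 (SE 0.17), with edgeR FDR from 0.58 to 0.961.

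The genes of vitamin K supply and recycling did not move as one group. Of 7 such genes, 2 rose and 3 fell with VPA in high glucose, and 2 fell in low glucose, against 46.1% and 41.6% of all genes called in either direction. AIFM2 (FSP1), a quinone reductase that reduces vitamin K, was at 133 CPM in LG, 69.5 in HG, 43.0 in LGV and 21.2 in HGV. It fell with VPA in high (-1.71, edgeR FDR 3.13e-07) and low glucose (-1.62, edgeR FDR 8.11e-07), and was also lower in HG than LG (-0.91, edgeR FDR 0.000132). NQO1, another quinone reductase, was at -0.65 (edgeR FDR 0.00047) in high and -0.33 (edgeR FDR 0.0517) in low glucose. Fewer transcripts of these reductases thus stood beside more of VKORC1 in HGV.

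EPHX1, an epoxide hydrolase, fell in both media (-0.52, edgeR FDR 0.00201, and -0.56, edgeR FDR 0.0011). CYP4F2, which breaks vitamin K down, was at 0.893 CPM in LG, 3.51 in HG, 0.976 in LGV and 6.67 in HGV. It was higher in HG than LG (2.00, edgeR FDR 2.67e-05), rose with VPA in high glucose (0.92, edgeR FDR 0.00241), and was at 0.14 in low glucose (edgeR FDR 0.738). Close relatives of CYP4F2 share sequence with it, so its counts are uncertain. CALU, a calcium-binding protein that restrains carboxylation, rose in high glucose (0.35, edgeR FDR 0.0105) and was at 0.36 in low glucose (edgeR FDR 0.0542). VKORC1L1, the paralogue of VKORC1, was at 0.24 and 0.22 (edgeR FDR 0.0601 and 0.137). NPC1L1, an importer of sterols and vitamin K, was at -0.07 and -0.27 (edgeR FDR 0.733 and 0.166) with VPA and rose with glucose (0.84, edgeR FDR 0.00062).

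**Figure D4:**
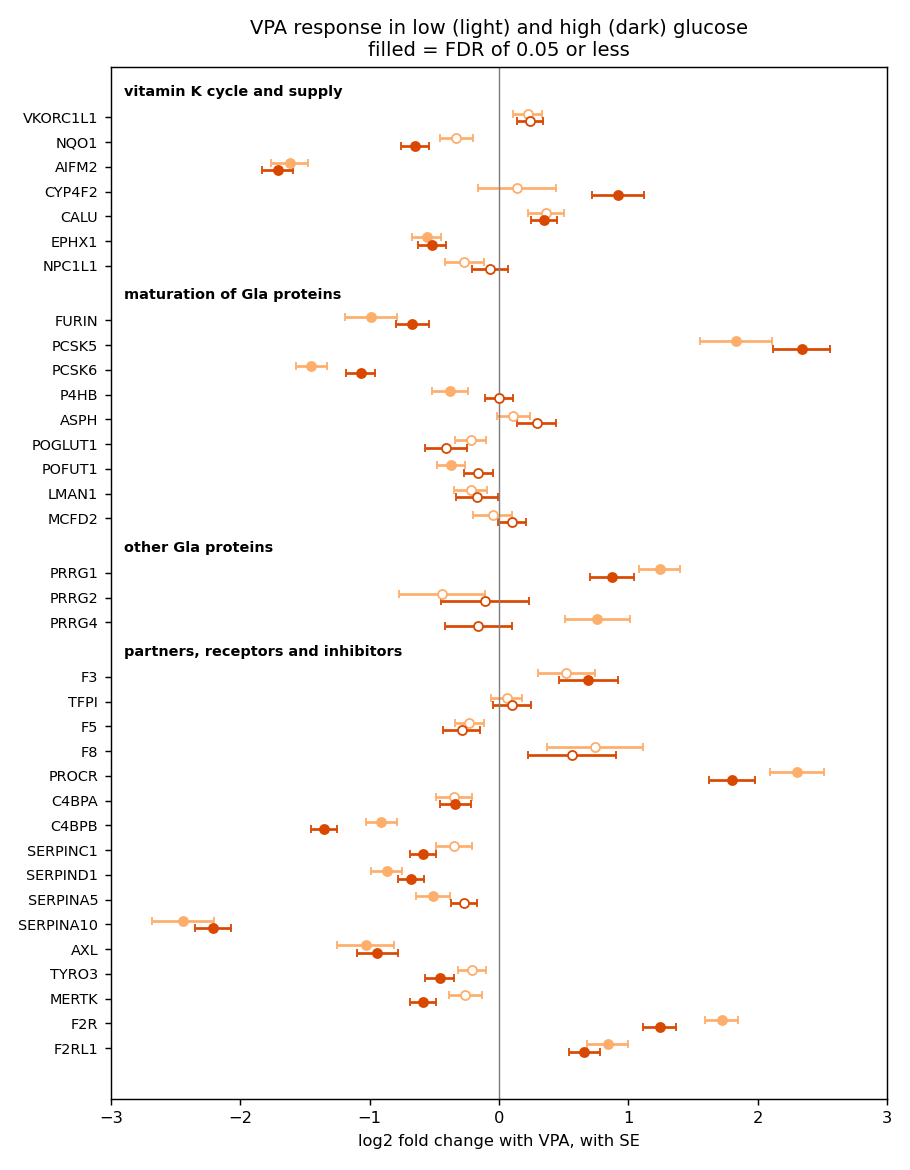
Log2 fold change with VPA (horizontal axis, with SE) of every tested gene of the 4 pathway lists, in low (light) and high (dark) glucose, filled at an FDR of 0.05 or less. AIFM2 (-1.62 and -1.71) and SERPINA10 (-2.44 and -2.21) lie farthest to the left, and PCSK5 (1.83 and 2.34) and PROCR (2.3 and 1.80) farthest to the right, in low and high glucose respectively.

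Among 9 genes that act on Gla proteins after or beside carboxylation, 1 rose and 2 fell in high glucose, and 1 rose and 4 fell in low glucose, where 46.1% and 41.6% of all genes were called. The proprotein convertases, which can remove the propeptide, went in different directions: PCSK5 rose (2.34, edgeR FDR 2.9e-06, and 1.83, edgeR FDR 0.000127) from between 0.599 and 1.05 CPM to between 2.44 and 3.83 CPM. PCSK6 (-1.07, edgeR FDR 5.59e-06, and -1.45, edgeR FDR 4.23e-07) and FURIN (-0.67, edgeR FDR 0.000856, and -0.99, edgeR FDR 0.00121) fell. P4HB, a disulfide isomerase, fell in low glucose (-0.38, edgeR FDR 0.0432) and was at 0 in high glucose (edgeR FDR 0.982). These are values of transcripts, and processing of the proteins was not measured.

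Of 18 partners, receptors and inhibitors, 16 were measured, with 4 higher and 8 lower in high glucose and 3 higher and 5 lower in low glucose. Of all genes, 25.8% were higher and 20.2% lower in high glucose, and 21.7% and 19.9% in low glucose. PROCR, the receptor that presents protein C for activation, rose (1.80, edgeR FDR 5.59e-06, and 2.3, edgeR FDR 9.78e-07) while PROC itself fell. F2R, a thrombin receptor, rose (1.24, edgeR FDR 7.61e-06, and 1.72, edgeR FDR 1.53e-07). C4BPB, whose product binds protein S in plasma, fell (-1.35, edgeR FDR 4.67e-07, and -0.91, edgeR FDR 2.67e-05). Other Gla proteins were mostly not analysed here, with 3 of 7 measured. Of these PRRG1, a membrane Gla protein, rose in both media (0.87, edgeR FDR 0.0011, and 1.24, edgeR FDR 3.22e-05), and PRRG4 was at -0.16 in high (edgeR FDR 0.646) and rose in low glucose (0.76, edgeR FDR 0.0242, with overlapping libraries).

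The windows before the transcript starts divided the members by CpG content. The 250-base windows of F2 (3 CpG), PROC (4), F7 (6), PROZ (6), F10 (9) and PROS1 (9) held few, and those of GGCX (21), VKORC1 (22) and GAS6 (31) held more, where the median over 13110 gene windows was 22 with quartiles of 15 and 29. The members that rose with VPA were thus the 3 with 21 or more CpG, and those that fell had 9 or fewer. This relation was noticed after the values had been seen, and it is a description of 9 genes. Over all genes tested that had a window, those with fewer than 10 CpG rose slightly more often in both media. In HGV against HG, 30.5% of them were higher and 23.6% lower, and with 10 or more CpG 28.5% and 21.3%. In LGV against LG the shares were 27.6% and 19.8% against 24.3% and 22.1%. The share that rose thus ran opposite to the members in both media, and the share that fell did so in low glucose only.

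The windows were also searched on both strands for short core letters of liver factor motifs. CAAAG, part of the sequence that HNF4A binds, was found in the windows of F7, PROZ and PROS1 (1 each) and GGCX (2), and in 33.1% of all windows. GTTAAT, a core of HNF1 sites, was found in F2 only and in 2.94% of all windows. TTGCNNAA, a core of C/EBP sites, was in no member's window and in 5.74% of all. These matches are descriptions of letters in a window.

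**Figure D5:**
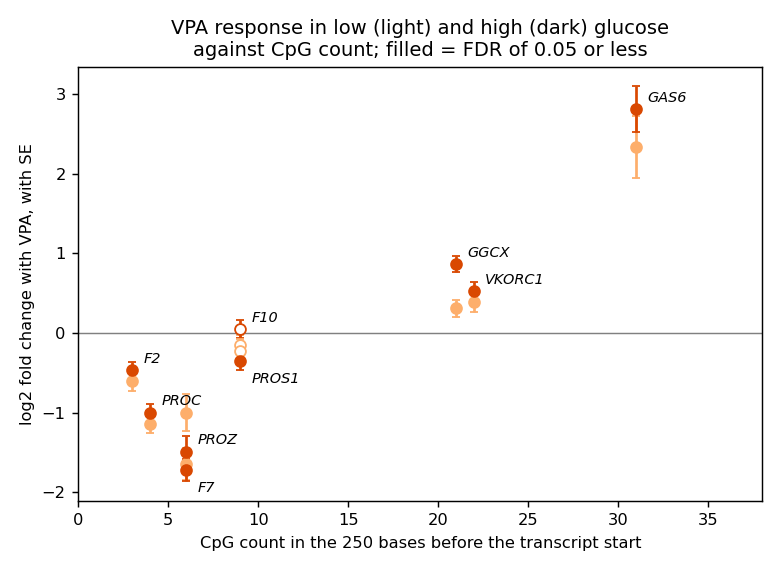
CpG count in the 250 bases before the transcript start (x axis) and log2 fold change with VPA and its SE (y axis) in low (light) and high (dark) glucose for the 9 members, filled at an FDR of 0.05 or less. The 6 members with 9 or fewer CpG have values from -1.72 to 0.05, and the 3 with 21 or more have values from 0.31 to 2.81.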

How the data were processed

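The deposited values are raw counts of reads per gene, without normalization. The authors removed bases under a quality of 20 from 50 nt single-end reads with FASTX Toolkit 0.0.13, discarded reads left shorter than 20 nt, aligned with STAR 2.3.1p_r359 to GRCh37 with Ensembl annotation 75, and counted with featureCounts 1.4.2 at a mapping quality of 10. Genes averaging fewer than 10 reads had been omitted. The library kit was directional, and whether counting used strand was not given in the sources used here.

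The test was the quasi-likelihood F test of edgeR (version 4.0.16, R 4.3.3) with TMM factors, fitted to the libraries of both groups for every gene averaging 10 or more reads in them. The p-values were adjusted by the Benjamini-Hochberg method over all genes tested, and the threshold for a call was an FDR of 0.05. The interaction used the 12 libraries. The SE is the log2 fold change divided by the square root of F, and the fitting was tested on simulated data. Scaling by median-ratio size factors or library size, the Wald test of DESeq2 1.42.0, other filters, a replicate block, 1 fit of all libraries, a stricter FDR (0.01) and omission of 1 library at a time were the alternatives. Tables and plots were made in Python 3.11.15 with pandas 2.3.3 and matplotlib 3.10.9. Positions, exon overlaps, promoter windows and lengths were taken from GENCODE (GRCh37), where 97.47% of identifiers were found.

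The members and lists were chosen with earlier results of these data known. The text names the members, all genes listed for vitamin K supply (a list from which 1 gene, not reported here, was left out), and from each other list up to 4 called genes with the largest change with VPA. The TAM receptors, ratios, CpG counts and motifs were chosen after values had been seen. Same-numbered libraries did not deviate together in all 3 pairs of any comparison, so they were not paired.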

Additional observations from a re-analysis of the deposited data

Results flagged for a closer look

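GGCX was picked out because its libraries in high glucose lay on opposite sides of those in low glucose without and with VPA. All 3 HG libraries (157 to 169 CPM) lay below all 3 LG libraries (186 to 201 CPM), whereas all 3 HGV libraries (276 to 316 CPM) lay above all 3 LGV libraries (232 to 241 CPM). The log2 fold change was -0.20 without VPA, which did not pass (edgeR FDR 0.208), and 0.33 with VPA (edgeR FDR 0.037), a call lost without HGV1 (0.29, edgeR FDR 0.113), LGV2 (0.31, edgeR FDR 0.113) or LGV3 (0.33, edgeR FDR 0.133). The difference between these effects, which is the interaction of glucose and VPA, was 0.57 on the log2 scale (SE 0.15). It did not pass after Benjamini-Hochberg adjustment in edgeR (FDR 0.116), which called 7 of all genes. It passed in DESeq2 (0.54, FDR 0.0263), which called 162. Without 1 library at a time it lay between 0.50 and 0.63, with edgeR FDR from 0.0786 to 0.359. Exons of MAT2A overlap GGCX on the opposite strand, and the part of this overlap in the value was not tested. Single libraries that stand apart were not looked for in groups of 3.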

How the results depend on the processing

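The number of members called with each library left out ranged from 1 to 4 in HG against LG, 7 to 8 in HGV against HG, 5 to 7 in LGV against LG, 2 to 6 in HGV against LGV, 6 to 7 in HGV against LG and 0 to 0 for the interaction, and of all genes from 1933 to 5338, 6083 to 7793, 4942 to 6986, 4516 to 7228, 7203 to 8600 and 1 to 217. At an FDR of 0.01, 0 members and 1852 genes were called in HG against LG, 2 members and 4263 genes in HGV against LGV, and 1 gene for the interaction, where 7 genes were called at 0.05. Interaction calls over all genes were 1 with library size only, 13 with the replicate block and 162 with DESeq2, which called 1 member (GGCX). Signs turned only for values that did not pass: F2 in HG against LG (-0.01 in 1 fit of all 12 libraries, -0.01 without HG2, -0.02 without LG3, up to 0.09 without LG1), F10 in HGV against HG (-0.02 without HGV3, -0.01 without HG1, up to 0.14 without HGV1) and in LGV against LG (0 with library size only), VKORC1 in HGV against LGV (0.05 with library size only, 0.02 without HGV1, 0 without LGV3, down to -0.11 without HGV2), PROZ there (-0.13 without HGV3, -0.02 without LGV2, up to 0.18 without LGV1), PROS1 in HGV against LG (-0.09 without LG1, up to 0.21 without LG3), and in the interaction F7 (0.04 without HGV1, 0.12 without LG2, 0.07 without LGV1, down to -0.25 without LG1) and PROS1 (0.03 without LG1, down to -0.24 without LG3). In 1 fit of all libraries PROZ in HG against LG (0.55, edgeR FDR 0.0501) and F7 in HGV against LGV (0.46, edgeR FDR 0.0555) were lost, and with at least 1 CPM in at least 3 libraries PROS1 was lost in HG against LG (edgeR FDR 0.0566) and gained in HGV against LGV (edgeR FDR 0.0478). Library size only raised the median log2 fold change of all genes to 0.11, 0.15, 0.16, 0.10 and 0.25 in the 5 comparisons, in the order above, and gained F10 in HG against LG (0.35, edgeR FDR 0.048) and PROS1 in HGV against LGV (0.38, edgeR FDR 0.0172). Apart from PROZ in HG against LG and VKORC1 in HGV against LG, the replicate block changed no call of a member. The causes were not tested. GAS6, with 6 to 17 reads per untreated library, is limited most by depth.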

Other observations

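Across the 12 libraries, the genes whose log2 CPM followed GAS6 most closely were C17orf103 (Pearson r = 0.987), CREG2 (0.985) and RP11-112L6.4 (0.984). CREG2 was near the floor without VPA (mean 0.0125 CPM in LG and 0.139 in HG). The r of CREG2 therefore depends on the 0.1 CPM that was added before the log. GAS6 itself was at 0.153 to 0.508 CPM without VPA, so every r with GAS6 depends on it in part. Between members, r was 0.97 for F7 and PROZ, 0.95 for F7 and PROC and 0.90 for GGCX and GAS6. The lowest values were -0.89 for VKORC1 with F7 and with PROZ, followed by -0.87 for GGCX and PROZ. F10 had r of 0.46 with F7 and 0.36 with PROZ, its neighbours on the chromosome. These values describe 4 groups of libraries that share their treatments, so no p is given. The log2 ratio of GGCX to VKORC1 counts was 2.39, 2.45 and 2.44 in LG, 2.42, 2.35 and 2.36 in HG, 2.53, 2.27 and 2.26 in LGV and 2.91, 2.64 and 2.61 in HGV, so that the HGV libraries held the 3 highest values.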
